A study of Mus musculus with 8 samples.

Results

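The 10 genes described here encode the endoplasmic reticulum (ER) chaperones and folding enzymes Hspa5, Hsp90b1, Calr, Pdia4 and Pdia6, the ER quality control proteins Dnajb9 and Herpud1, and the stress transcription factors Xbp1, Atf4 and Ddit3. They were chosen by name, and all 10 were among the 14162 genes of the deposited table. The 8 libraries were RNA sequencing libraries of mouse hepatic stellate cells, which store vitamin A in the healthy liver and become contractile, matrix-secreting myofibroblasts when activated. Libraries a and b were made for each of 4 groups. One group held quiescent cells, another activated cells with no microRNA named, and the remaining groups activated cells that had received either miR-15a or a control microRNA. C57BL/6J and SCID mice are both named for the series, and the labels do not say which library came from which strain, how the cells were activated, or how and for how long the microRNAs were given. Nor is it given whether libraries a and b are separate animals or cultures, so a p-value reflects only how far these libraries spread, possibly for technical reasons.

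The unfolded protein response matches the folding capacity of the ER to the load of secreted and membrane proteins. Its sensors PERK, IRE1 and ATF6 sit in the ER membrane and are held inactive by BiP, the product of Hspa5. PERK slows translation but allows the transcription factor ATF4 to be made, IRE1 splices the mRNA of Xbp1 into its active form, and ATF6 is cut to release a factor that acts on chaperone genes. Sustained signalling raises CHOP, the product of Ddit3, which is linked to cell death. In stellate cells the pathway has been studied because activation brings a large load of procollagen into the ER.

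Promoter sequences are shown because ATF6 and XBP1 are known to act through short promoter motifs. The ER stress response element (ERSE) reads CCAAT, then 9 bases, then CCACG, and its variant ERSE-II reads ATTGG, then 1 base, then CCACG. Both were sought on both strands from 250 bases before to 50 bases after each RefSeq gene start (GRCm38.p6). All 10 genes had such a promoter, and 4 of them, Hspa5, Hsp90b1, Calr and Pdia6, held an ERSE, against 0.119% of the 32851 RefSeq promoters searched. As the motif is a known one of the ER stress response, this share describes the promoters and is not a test. Herpud1 held an ERSE-II, as did 0.0365% of all promoters. Hsp90b1 held an ERSE in each orientation, at -212 to -194 and, reversed, at -107 to -89 from the start. In the other genes the match lay at -65 to -47 (Hspa5), -98 to -80 (Pdia6), -162 to -144 and reversed (Calr), and -52 to -42 (Herpud1). The CCAAT of an ERSE is also counted as a match of CCAAT alone, which 37.4% of promoters held. The sequences below run 5′ to 3′ on the strand of the gene, and capitals mark the 2 letter blocks of each match (CGTGG and ATTGG where the element is reversed).
Hspa5, chr2:34771995-34772073, plus strand: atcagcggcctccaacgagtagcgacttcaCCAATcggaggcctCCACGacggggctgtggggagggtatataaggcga
Hsp90b1, chr10:86705503-86705686, minus strand: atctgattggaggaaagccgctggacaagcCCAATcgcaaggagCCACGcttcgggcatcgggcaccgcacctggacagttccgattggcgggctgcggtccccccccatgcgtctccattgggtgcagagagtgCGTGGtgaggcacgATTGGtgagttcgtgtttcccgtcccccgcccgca
Calr, chr8:84847045-84847123, minus strand: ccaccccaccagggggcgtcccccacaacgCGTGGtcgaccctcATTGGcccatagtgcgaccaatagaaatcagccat
Pdia6, chr12:17266461-17266539, plus strand: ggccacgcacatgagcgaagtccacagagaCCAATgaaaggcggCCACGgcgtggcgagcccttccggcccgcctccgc
Herpud1, chr8:94386347-94386417, plus strand: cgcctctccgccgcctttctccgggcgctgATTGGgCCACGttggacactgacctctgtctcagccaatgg

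Other motifs were sought in the same window. The XBP1 core TGACGTGG, held by 0.676% of promoters, matched none of the 10, and the amino acid response motif TGATGNAA, held by 3.97%, matched Herpud1. The shorter letters ACGTG matched 6 of the 10 and 19.6% of all promoters. CCACG alone matched 8 of the 10 and 32.8%, and CCAAT alone 9 of the 10 and 37.4%. A match describes the letters of this window and is not a measured binding site. The ERSE was shared by genes that moved in opposite directions on activation, as the values below show.

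The deposited values are normalized scores, and the sequencing depth of the libraries is unknown. Every library holds the same 910 distinct values, and at the top of the scale they form wide steps. The 10 highest genes share the value 125636, and the next ones share 58200 or 58193. The scores of Hspa5, Hsp90b1 and Calr lie on such steps, so libraries of 1 group can be tied and the standard error (SE) of these genes may be too small. Fold changes were fitted with limma on log2(score + 5) over all 8 libraries and 13150 genes, and a gene was called at a Benjamini-Hochberg adjusted p under 0.05. The Y-linked Ddx3y was at 40 to 44 in quiescent, 2570 to 2606 in activated, 1006 to 1046 in miR-15a and 1268 to 1282 in control microRNA libraries, while Xist was at 8724 in both quiescent libraries, 21 to 169 in activated, 3373 in both miR-15a and 3373 to 5027 in control microRNA libraries. Between quiescent, activated and microRNA-treated cells this difference runs with the group and cannot be told apart from it. Its part in the results of all 4 comparisons was not tested. The myofibroblast markers had a summed score of 3940 to 4247 over 10 markers in quiescent and of 395306 to 404053 in activated libraries. Of 10 quiescent stellate markers 8 had a row, and Lrat and Lhx2 did not. Of these 6 were lower and 2 higher in activated cells, with a median log2 fold change of -2.45, and their sum was 13253 to 14086 in quiescent and 8223 to 8616 in activated libraries.

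The first comparison, activated against quiescent cells, addressed the change on activation. Chaperone and folding genes split. Hsp90b1, Calr, Pdia4 and Pdia6 rose by 2.5-fold or more, while Hspa5, the most abundant of the 10 in quiescent cells, fell by more than 3-fold. Of the transcription factors Ddit3 rose, Atf4 fell and Xbp1 did not pass. In all 5 of the 10 genes were called higher, 3 lower and 2 neither, where 45.4% of all genes tested were called higher and 34.1% lower. The median log2 fold change of the 10 genes was 0.66, against 0.21 for all genes tested. Calls are thus common in this comparison, and the members' count is near the background.

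Hspa5 encodes BiP, the HSP70 chaperone of the ER lumen. It stood at 58200 in both quiescent libraries, where only 10 genes were higher, and at 18677 and 14432 in the activated libraries, where 60 and 69 genes were higher. It was 3.54-fold lower in activated cells (log2 fold change -1.83 ± 0.19 SE, adjusted p = 6.4e-05, limma, n = 2 each). The 2 activated values are neighbouring steps of the scale, and neither overlaps the quiescent value.

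Hsp90b1 encodes GRP94, the HSP90 chaperone of the ER, whose clients include integrins and Toll-like receptors. Its score was 2922 and 2605 in quiescent libraries and 18666 in both activated libraries, a 6.76-fold rise (log2 fold change 2.76 ± 0.07, adjusted p = 2.2e-08). In rank it moved from below 512 and 591 other genes to below 63 in each activated library. Hsp90b1 stood just below Hspa5 in activated library a and above it in library b.

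Calr encodes calreticulin, the calcium-binding lectin chaperone of glycoproteins. Its score was 5124 and 5345 in quiescent and 12562 and 14426 in activated libraries (log2 fold change 1.36 ± 0.12, adjusted p = 2.4e-05). Pdia4 and Pdia6 encode protein disulfide isomerases of the ER, which form and rearrange disulfide bonds. Pdia4 was at 1076 and 1019 in quiescent and at 2991 and 2640 in activated libraries (1.42 ± 0.09, adjusted p = 3.4e-06). Pdia6 was at 2036 and 2022 in quiescent and at 5343 and 4899 in activated libraries (1.33 ± 0.07, adjusted p = 1.2e-06). The 3 genes rose by similar factors, between 2.52-fold and 2.68-fold, and their groups did not overlap. The share of all genes without overlap was not counted, and 45.4% of all genes tested were called higher.

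Dnajb9 encodes ERdj4, a J-domain partner of BiP that also holds IRE1 in check. It fell from 1046 and 972 to 364 and 370 (log2 fold change -1.45 ± 0.07, adjusted p = 6.3e-07). Herpud1 encodes an ER membrane protein that organizes the degradation of misfolded proteins. Its score was 1046 and 1170 in quiescent and 1110 and 1082 in activated libraries, and the groups overlapped (-0.01 ± 0.08, 95% interval -0.20 to 0.17, adjusted p = 0.88).

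Atf4 fell from 4776 and 5029 to 2063 and 2251 (log2 fold change -1.18 ± 0.07, adjusted p = 2.9e-06), although ATF4 is known to be set largely by translation, which these data do not measure. Ddit3 rose from 106 and 98 to 500 and 429 (2.13 ± 0.11, adjusted p = 8.4e-07), the second largest increase of the 10. Xbp1 was at 1461 and 1353 in quiescent and at 1268 and 1396 in activated libraries, with overlapping groups (-0.08 ± 0.07, interval -0.25 to 0.09, adjusted p = 0.33). Gene scores do not separate spliced from unspliced Xbp1. All 8 calls of this comparison were kept in each alternative setting tried. Median-ratio scaling, which moved the median of all genes from 0.207 to -0.065, added Xbp1 at -0.36 (adjusted p = 0.0018) and Herpud1 at -0.29 (adjusted p = 0.01) as lower.

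**Figure D1:**
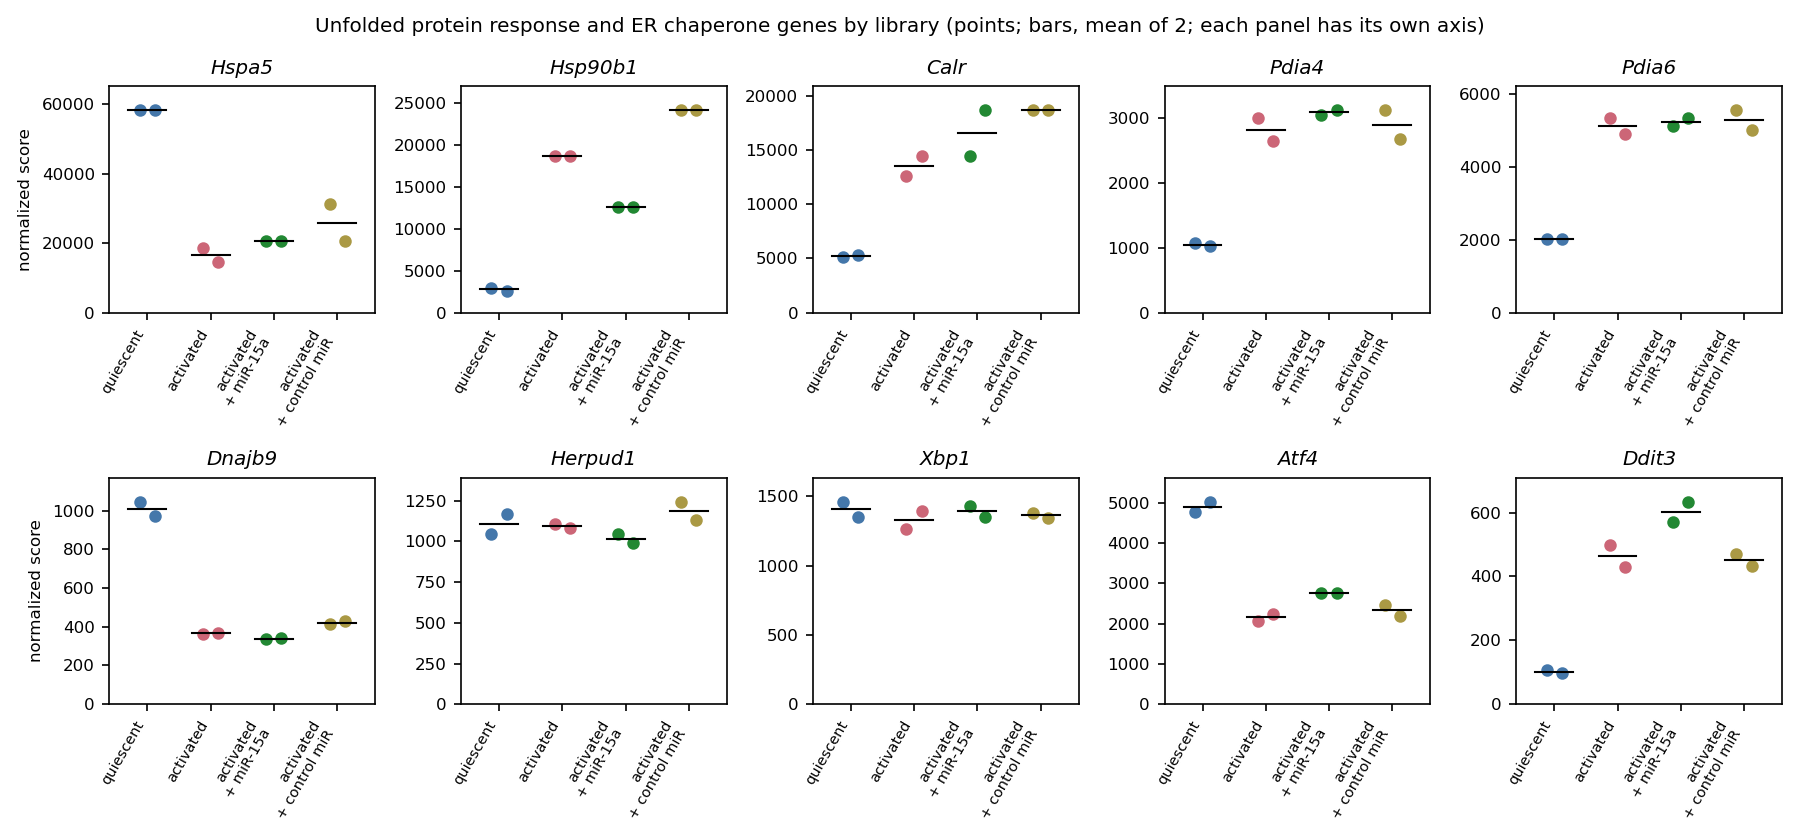
Normalized score (vertical axis, from 0, own scale per panel) of each of the 10 genes in the 8 libraries by group; points are libraries and bars the mean of 2. Hspa5 was at 58200 in both quiescent libraries and at most 31230 elsewhere, while Hsp90b1 was at most 2922 in quiescent libraries and at least 12562 elsewhere.

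Transcripts of other liver cell types moved with this comparison. All 10 sinusoidal endothelial markers were lower in activated cells, with a summed score of 151069 to 220431 in quiescent and 77 to 196 in activated libraries, where Pecam1 was at 0 in library b. All 11 macrophage markers with a row were lower too, with sums of 149277 to 175152 and 1728 to 1921, and Marco at 0 in activated library b. All 9 hepatocyte markers with a row were lower, with sums of 13910 to 16298 and 363 to 483. Their part in the changes of the 10 genes, higher or lower, and of the wider pathway below was not tested. Of 10 B and plasma cell markers, a lineage with a large ER, only Igj and Sdc1 had a row. Igj was at 94 and 121 in quiescent and 2 and 2 in activated libraries, and Sdc1, which other cells also express, at 200 and 217 and at 2528 and 2420. In bulk libraries fewer cells of a type and less RNA per cell cannot be told apart.

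The wider pathway was described with 5 lists, and in 4 of them more genes rose than fell in activated cells. Of 22 other ER chaperones and folding enzymes 16 rose and 2 fell, with a median log2 fold change of 1.23. Dnajc10, a disulfide reductase with a J domain, rose from 588 and 613 to 9198 and 8724 (3.89 ± 0.06, adjusted p = 3.3e-09). Selm, which encodes selenoprotein M, rose by 3.48 on the log2 scale, Txndc5, a disulfide isomerase, by 2.33, and Ero1l, the oxidase that recharges disulfide isomerases, by 1.88. Of 25 genes of translocation into the ER and traffic to the Golgi 20 rose and 2 fell, with a median of 0.63. Kdelr3, a receptor that returns escaped chaperones to the ER, rose from 36 and 39 to 1362 and 1430 (5.04 ± 0.12, adjusted p = 2.3e-08). The coat components Sec13 and Sec31a rose by 1.70 and 1.31, and Ssr1, a translocon subunit, by 1.37.

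Of 19 genes of ER-associated degradation with a row 10 rose and 3 fell, with a median of 0.40. Sel1l, the scaffold of the HRD1 ubiquitin ligase, rose by 1.5, Vimp (selenoprotein S) by 1.29, Edem3, a mannosidase, by 1.28 and Ube2j1, a ubiquitin-conjugating enzyme, by 1.17. Syvn1, which encodes HRD1 itself, fell by 0.88 and is named outside the rule for its role beside Sel1l. Of 17 sensors and signalling genes with a row 5 rose and 8 fell, with a median of -0.18. Ppp1r15a and Ppp1r15b, which encode the subunits that direct dephosphorylation of eIF2α, fell by 1.61 and 1.74, while Creb3, an ER-bound factor related to ATF6, and Wfs1 (wolframin) rose by 1.44 and 2.70. The sensors themselves, named for their role after their values were seen, did not move together. Ern1 (IRE1) fell from 700 and 731 to 185 and 152 (log2 fold change -2.06 ± 0.14, adjusted p = 5.4e-06). Eif2ak3 (PERK) rose from 177 and 154 to 260 and 268 (0.66 ± 0.11, adjusted p = 9.5e-04). Atf6 was at 2132 and 2036 and at 2202 and 2302 and did not pass (0.11 ± 0.06, adjusted p = 0.11).

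Of 30 genes known as targets of ATF4 or CHOP 22 rose and 8 fell, with a median of 1.38, while Atf4 itself fell. Those with the smallest p were Phgdh, the first enzyme of serine synthesis, which rose from 20 in both quiescent libraries to 1014 and 985 (5.33 ± 0.07, adjusted p = 2.6e-09), Nupr1, a stress-induced chromatin protein (5.97 ± 0.11), Gars, a tRNA synthetase (2.34 ± 0.05), and Asns, asparagine synthetase (3.79 ± 0.09). Named outside the rule as the member with the largest decrease, Atf3, a stress-induced factor, fell from 1037 and 1118 to 90 and 72 (-3.66 ± 0.14, adjusted p = 2.0e-07). Against these counts stand the 45.4% and 34.1% of all genes called.

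**Figure D2:**
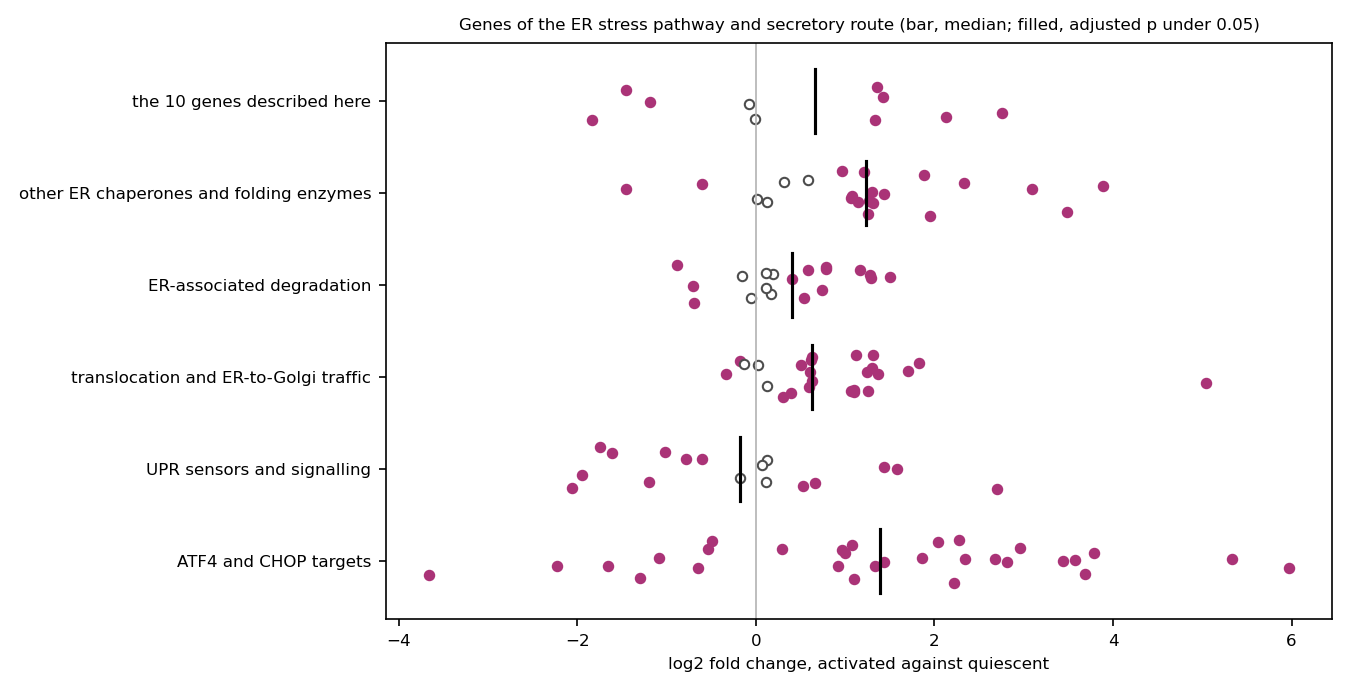
Log2 fold change, activated against quiescent (horizontal axis), of each gene in 6 lists; filled points passed an adjusted p of 0.05 and the bar is the list's median. The median was 0.66 for the 10 genes, 1.23 for the other chaperones and folding enzymes, 1.38 for ATF4 and CHOP targets and -0.18 for the sensors and signalling genes.

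The series asked which genes miR-15a may target, and for this activated cells given miR-15a are set against those given the control microRNA. Hsp90b1 and Dnajb9 were lower and Atf4 and Ddit3 higher with miR-15a, all by less than 2-fold, and the other 6 genes did not pass. Of the 10, 2 were thus called higher, where 14.4% of all genes tested were, and 2 lower, where 15.4% were. The median of the 10 was -0.10, against -0.07 for all genes.

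Hsp90b1 was at 12562 in both miR-15a libraries and at 24099 in both control microRNA libraries, 1.92-fold lower (log2 fold change -0.94 ± 0.07, adjusted p = 6.9e-05, limma). The libraries of each group were tied, so leaving out a library could not move this difference. Dnajb9 was at 336 and 342 with miR-15a and at 416 and 428 with the control (-0.31 ± 0.07, adjusted p = 0.014). Ddit3 was at 570 and 634 against 470 and 432 (0.41 ± 0.11, adjusted p = 0.024), and Atf4 at 2758 in both against 2462 and 2202 (0.24 ± 0.07, adjusted p = 0.042). The groups of these 4 genes did not overlap, and the share of all genes without overlap was not counted.

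The smaller calls rested on few libraries. The call of Ddit3 was lost without miR-15a library b (adjusted p = 0.13) or control library b (0.12), that of Dnajb9 without miR-15a library a (0.057) or control library b (0.061), and that of Atf4 without any single library other than control library a (0.051 to 0.17). With only these 2 groups in the fit Hsp90b1 alone of the 10 was called, and with the replicate letters as a block the adjusted p of Atf4 was 0.061.

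Hspa5 was at 20504 in both miR-15a libraries and at 31230 and 20504 in the control libraries, so 1 control library equalled the miR-15a value (-0.30 ± 0.19, interval -0.76 to 0.15, adjusted p = 0.28). Without that control library, b, the difference was -0.61 and passed (adjusted p = 0.028), and without control library a it was 0. Calr was at 14426 and 18666 against 18666 in both, and did not pass (-0.19 ± 0.12, interval -0.47 to 0.10, adjusted p = 0.29), though without miR-15a library b it was -0.37 and did (adjusted p = 0.041), and without library a it was 0. Pdia4 was at 3047 and 3113 against 3112 and 2670, with an interval of -0.12 to 0.31. Pdia6 was at 5123 and 5343 against 5561 and 5027, with an interval of -0.18 to 0.15. Herpud1 was at 1046 and 990 against 1244 and 1130, which do not overlap but did not pass (-0.22 ± 0.08, adjusted p = 0.073). Xbp1 was at 1430 and 1353 against 1380 and 1346 (0.03 ± 0.07, interval -0.14 to 0.20).

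miR-15a pairs with its targets mainly through its seed, shown in capitals (bases 2 to 8) in the mature RefSeq sequence, which is encoded on chromosome 14.
mmu-miR-15a-5p: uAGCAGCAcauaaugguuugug
The complement of the seed, TGCTGCT, was sought in the longest 3′ UTR that GENCODE M21 (GRCm38, which is mm10) gives for each protein-coding gene. Of the 10 genes only Pdia6 had it, once, in exon 13 of 13 at chr12:17284256-17284262, plus strand, while 23.9% of 12533 genes with a 3′ UTR had it. The site is shown with its flanks and the match in capitals.
Pdia6: tccctcctgacTGCTGCTtgaatgttcct
Pdia6 itself differed by -0.02 ± 0.07 (log2) between miR-15a and control (adjusted p = 0.89), and Hsp90b1, the member with the largest difference, had no match in its 262-base 3′ UTR.

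In the wider pathway the calls went both ways, where 14.4% of all genes tested were called higher and 15.4% lower. Of 19 degradation genes 5 fell and 1 rose, among them Syvn1 (-0.79 ± 0.12, adjusted p = 0.0026), Sel1l (-0.58 ± 0.09), Os9, a lectin of the same ligase complex (-0.47 ± 0.08), and Edem3 (-0.39 ± 0.09). Syvn1 was at 138 in both miR-15a libraries and at 220 and 267 in the control libraries. Of 22 chaperones and folding enzymes 4 fell and 2 rose, and Canx, calnexin, the membrane partner of calreticulin, was at 14426 against 18666 in both libraries of each group (-0.37 ± 0.05, adjusted p = 0.002), 1 step of the scale. Of 30 ATF4 and CHOP targets 5 fell and 1 rose. The 1 was Atf3, at 262 and 256 against 84 and 68 (1.71 ± 0.14, adjusted p = 1.4e-04), while the amino acid genes Aldh18a1, Slc7a5 and Slc7a11 fell by 0.56, 0.48 and 0.53. Of 25 translocation and traffic genes 7 fell and 4 rose, with subunits of 1 complex on both sides, Ssr1 at -0.55 ± 0.06 and Ssr3 at 0.44 ± 0.06. Of 17 sensors and signalling genes 5 fell and 2 rose. Eif2ak3 was at 194 and 228 against 314 and 302 (-0.54 ± 0.11, adjusted p = 0.011) and Ppp1r15a at 462 and 489 against 376 and 359 (0.37 ± 0.07, adjusted p = 0.007).

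Markers of other cell types moved with this comparison as well. All 10 endothelial and all 11 macrophage markers were higher with miR-15a. Their sums were 7920 to 8095 and 13482 to 14754 with miR-15a, and 230 to 388 and 2277 to 2540 with the control. The hepatocyte sum was 1616 to 2216 against 290 to 1445, with Apoa1 and Fgb at 0 in control library a. Of 10 myofibroblast markers 4 were lower and none higher with miR-15a, with sums of 235005 to 355119 against 270622 to 323602. The part of these cells in the values of the 10 genes and of the wider pathway was not tested.

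**Figure D3:**
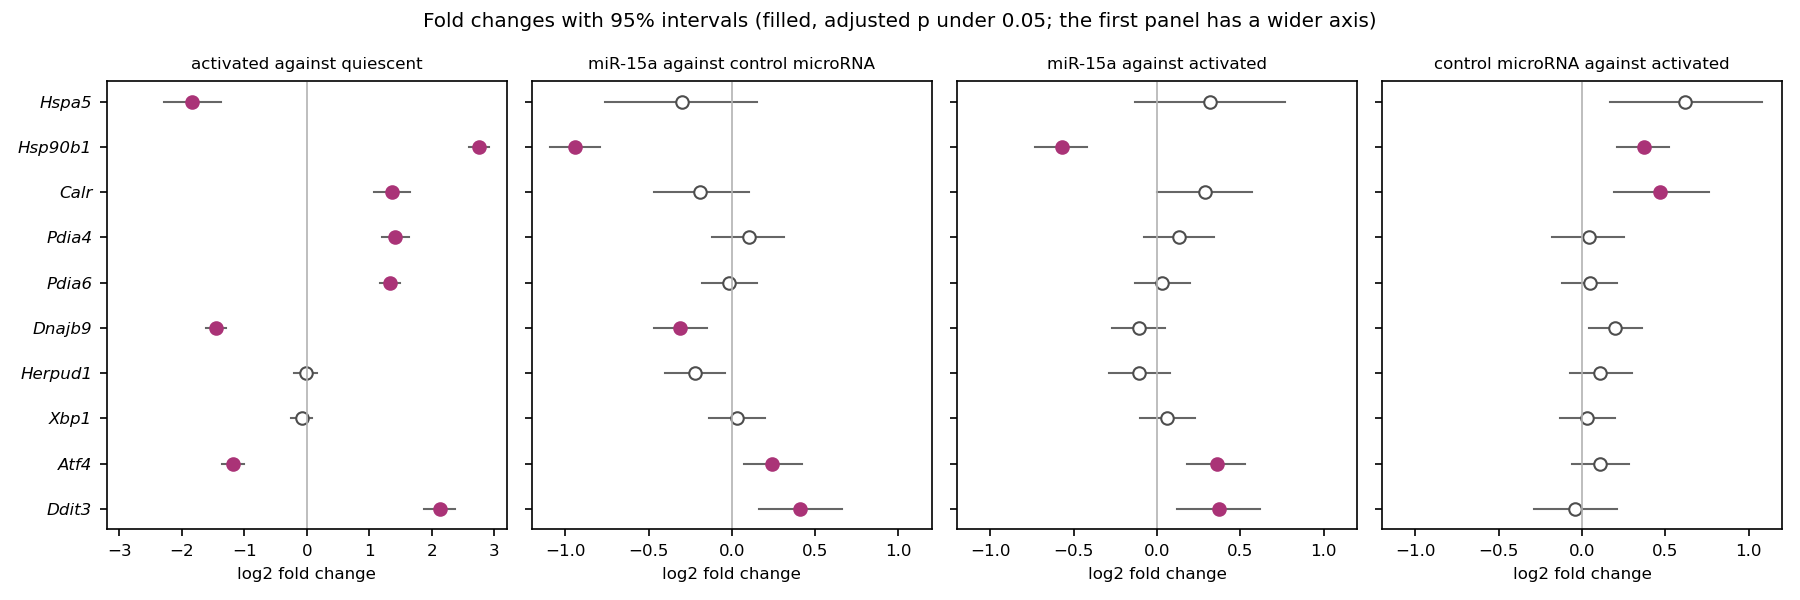
Log2 fold change (horizontal axis) of the 10 genes in 4 comparisons, with 95% intervals from limma; filled points passed an adjusted p of 0.05, and the first panel has a wider axis than the other 3. On activation 8 genes passed, while Hsp90b1 at -0.94 was the largest difference of the 10 between miR-15a and the control microRNA.

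Against activated cells with no microRNA named, Hsp90b1 was again lower with miR-15a, at 12562 against 18666 in both libraries of each group (-0.57 ± 0.07, adjusted p = 6.3e-04). Atf4 was higher, at 2758 in both against 2063 and 2251 (0.36 ± 0.07, adjusted p = 0.0088), and so was Ddit3, at 570 and 634 against 500 and 429 (0.37 ± 0.11, adjusted p = 0.029). Of the 10 genes 2 were called higher, where 16.8% of all genes tested were, and 1 lower, where 21.6% were. The call of Atf4 was lost without activated library a (adjusted p = 0.056) and that of Ddit3 without activated library b (0.17) or miR-15a library b (0.14). The libraries of Hsp90b1 were again tied in each group. Median-ratio scaling added Calr at 0.43 (adjusted p = 0.033) and Pdia4 at 0.28 (adjusted p = 0.043) as higher, and Calr also passed without miR-15a library a, at 0.47 (adjusted p = 0.015), while without library b it was 0.10 (adjusted p = 0.45). Among other chaperones and folding enzymes 8 of 22 fell and 2 rose, led by Dnajc10 (-0.91 ± 0.06, adjusted p = 2.8e-05), Canx (-0.51 ± 0.05), Ero1l (-0.46 ± 0.07) and Dnajc3, an inhibitor of PERK (-0.53 ± 0.10). Of 19 degradation genes 6 fell and 3 rose, of 30 ATF4 and CHOP targets 8 fell and 6 rose, of 25 translocation and traffic genes 6 fell and 7 rose, and of 17 sensors and signalling genes 5 fell and 2 rose. All 10 endothelial and all 11 macrophage markers were higher with miR-15a here too, with sums of 7920 to 8095 against 77 to 196 and of 13482 to 14754 against 1728 to 1921. Of 10 myofibroblast markers 4 were lower and none higher. The part of these cells in the values of the 10 genes and of the wider pathway was not tested here either.

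The control microRNA against activated cells showed what differed without miR-15a, and it shares the activated libraries with the comparison before it. Hsp90b1 was higher with the control, at 24099 against 18666 in both libraries of each group (0.37 ± 0.07, adjusted p = 0.014), and Calr was at 18666 in both against 12562 and 14426 (0.47 ± 0.12, adjusted p = 0.045). Of the 10 genes 2 were called higher, where 7.18% of all genes tested were, and none lower, where 6.61% were. At an unadjusted p of 0.05, 2 more, Hspa5 and Dnajb9, were higher and again none was lower. The share of all genes at that looser threshold was not counted, so this count has no background beside it. Median-ratio scaling added Dnajb9 at 0.28 (adjusted p = 0.034, limma) as higher. The call of Hsp90b1 was lost without activated library a (adjusted p = 0.064) or b (0.073), and that of Calr without any single library outside the miR-15a group (0.071 to 0.18). Hspa5 was at 31230 and 20504 against 18677 and 14432 and did not pass (0.62 ± 0.19, interval 0.17 to 1.08, adjusted p = 0.07), and without control library b it was 0.93 and did (adjusted p = 0.018), while without control library a it was 0.32 (adjusted p = 0.16). Hsp90b1 thus differed from activated cells in opposite directions with the 2 microRNAs. Few other genes of the pathway were called here. Of the lists, 2 of 22 chaperones and folding enzymes fell, among them Dnajc10 (-0.74 ± 0.06, adjusted p = 5.3e-04), 1 of 19 degradation genes rose, Syvn1 (0.53 ± 0.12, adjusted p = 0.029), and 5 of 30 ATF4 and CHOP targets rose and 1 fell. Of 25 translocation and traffic genes 2 rose, and of 17 sensors and signalling genes 2 fell, Ppp1r15a (-0.48 ± 0.07, adjusted p = 0.0064) and Atf6 (-0.23 ± 0.06, adjusted p = 0.043). The sums of endothelial and macrophage markers were 230 to 388 against 77 to 196 and 2277 to 2540 against 1728 to 1921. Of 10 myofibroblast markers 5 were lower and none higher, with sums of 270622 to 323602 against 395306 to 404053. Their part in these values was not tested.

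Across the 4 groups the 10 genes fell into 3 orders of level. Hspa5, Atf4 and Dnajb9 were highest in quiescent cells, and each of their 6 activated libraries, with or without a microRNA, was below both quiescent libraries. Among the activated groups Hspa5 did not pass between any pair, Atf4 was highest with miR-15a, and Dnajb9 was lowest there but differed only from the control microRNA. Hsp90b1, Calr, Pdia4, Pdia6 and Ddit3 were lowest in quiescent cells, again with no overlap with any of the 6 activated libraries. The share of all genes separated in this way was not counted. On activation 45.4% of all genes tested were called higher and 34.1% lower. Within the activated groups the order of Hsp90b1 was control microRNA, activated, miR-15a, with each neighbouring pair past the threshold. Its libraries were tied within each of these groups, so its SE holds no spread measured there. For Calr the order was control microRNA, miR-15a, activated, and only the ends differed. For Ddit3 miR-15a stood above the other 2, which did not differ beyond their spread. Pdia4 and Pdia6 did not pass between any pair of activated groups. Xbp1 stayed within 1268 to 1461 and Herpud1 within 990 to 1244 over the 8 libraries, and neither passed in any of the 4 comparisons.

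Scores were also divided by the length of annotated exon, as a rough scale between genes. How the scores were made is not given, so this scale may not hold between genes. Steps at the top are wide: the activated score of Hsp90b1 lay 0.371 (log2) above the next step, so close orders there are not resolved. Per kilobase the group means of quiescent cells ran from 13800 for Hspa5 down to 59.5 for Ddit3. Atf4 (2080) and Calr (1820) came next after Hspa5, and Hsp90b1 was at 685. In activated cells Calr (4690), Hsp90b1 (4630) and Hspa5 (3910) lay close together, followed by Pdia6 (1370), Pdia4 (1170) and Atf4 (915), with Ddit3 at 271 and Dnajb9 lowest at 144. With miR-15a Hsp90b1 (3120) stood below Hspa5 (4850) and Calr (5750), and with the control microRNA the 3 were at 5980, 6120 and 6480. Hsp90b1 overlaps the annotated gene 1810014B01Rik and Ddit3 overlaps Mars at 1 end, and whether counting used the strand is not given in the sources used here. 1810014B01Rik was at 81 or less in every library, whereas Mars was at 348 to 1050, so the levels of Ddit3 could include reads of Mars.

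**Figure D4:**
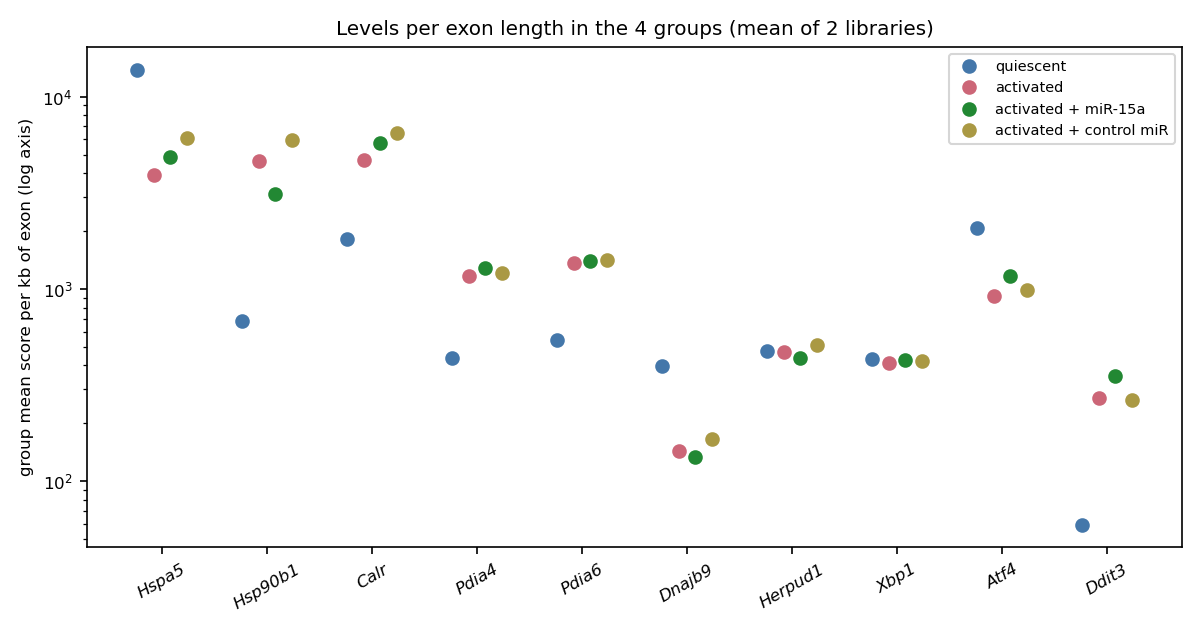
Group mean score per kb of annotated exon (vertical axis, log scale) of the 10 genes, coloured by group; each point is the mean of 2 libraries. Hspa5 was at 13800 in quiescent cells and at 3910 to 6120 in the activated groups, while Hsp90b1 was at 685 and at 3120 to 5980.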

How the data were processed

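The submitters' processing notes name STAR, Subread, featureCounts and mm10, with no versions or settings. The table that the authors deposited holds whole numbers per gene, but not raw counts: totals are 10193036 to 10234768 and all 8 libraries share 910 distinct values. These deposited values were treated as a normalized score; the step that made them is not given in the sources used here, and without depth no counting interval can be given. Genes at 10 or more in at least 2 libraries were kept. limma (3.58.1, R 4.3.3) was fitted on log2(score + 5), which understates changes of low genes, with 4 group means, a mean-dependent variance prior and Benjamini-Hochberg adjustment over 13150 genes. The fit was also run on simulated data with known changes, for miR-15a against the control microRNA and with the same spread in every gene. Its outcome is not reported here. The 10 members, the 5 pathway lists and the marker lists were chosen with earlier results of these data known. All 10 members are named; of each list the 4 genes with the smallest p per comparison could be named, and others are marked as outside that rule. Older and current symbols were matched through RefSeq names. Alternatives covered pseudocounts of 1 and 20, filters, scaling, samples in the fit, the prior, a fold limit, a replicate block and each library left out. Exon lengths and 3′ UTRs came from GENCODE M21, and promoters and the microRNA from RefSeq. One of the genes most like Hspa5 in pattern is not reported here.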

Additional observations from a re-analysis of the deposited data

How the results depend on the processing

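For activated against quiescent cells the members called numbered 8 or, with median-ratio scaling, 10. Of 680 values of single genes under alternatives, 609 kept their direction and side of the threshold, 42 lost a call, 9 gained one and 20 changed sign, all of the last in genes that had not passed. The calls for miR-15a against the control microRNA, 4 in the main setting, were 1 with only the groups compared, 0 with a log2 fold change over 1 required, and 2 to 4 with libraries left out. Against activated cells, 3 became 5 with median-ratio scaling and 0 with the fold limit. For the control microRNA against activated cells, 2 became 1 with a pseudocount of 1, with no filter, with no mean-dependent prior and with only the groups compared, 0 with the fold limit, and 0 to 2 with libraries left out. With median-ratio scaling this last comparison had 3, as Dnajb9 was added. The cause of these shifts was not tested, except that the fold limit by construction drops smaller changes. A group left with 1 library was assumed to vary like the others.

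Median-ratio scaling turned the sign of Pdia6 against the control microRNA (0.05), of Dnajb9 (0.03) and Herpud1 (0.04) with miR-15a against activated cells, and of Ddit3 with the control microRNA against activated cells (0.04). With libraries left out, Herpud1 ranged from -0.09 to 0.07 on activation. For miR-15a against the control microRNA, Calr ranged from -0.37 to 0, Pdia4 from -0.01 to 0.21, Pdia6 from -0.09 to 0.06 and Xbp1 from -0.01 to 0.07. For miR-15a against activated cells Pdia6 ranged from -0.03 to 0.09 and Xbp1 from -0.01 to 0.13. For the control microRNA against activated cells Pdia4 ranged from -0.07 to 0.15, Pdia6 from -0.03 to 0.12, Xbp1 from -0.03 to 0.10 and Ddit3 from -0.15 to 0.07. Over all genes, median-ratio scaling moved the split of calls from 5968 higher and 4483 lower to 4749 and 5418 on activation, from 1897 and 2029 to 2311 and 1585 for miR-15a against the control microRNA, from 2204 and 2841 to 3111 and 1620 for miR-15a against activated cells, and from 944 and 869 to 1370 and 493 for the control microRNA against activated cells. In the same order the fold limit left 3160 and 2859, 679 and 219, 827 and 351, and 235 and 87. With only the groups compared, miR-15a against the control microRNA gave 1240 and 1056, and the control microRNA against activated cells 245 and 191; the latter gave 1009 and 1630 with no filter and 816 and 1139 with no mean-dependent prior. Leaving out a library moved the higher or the lower count by over 1.5 times in the cases below. Without miR-15a library a, miR-15a library b or control library b, miR-15a against the control microRNA gave 1396 and 1269, 1291 and 1090, or 1320 and 1065. Without activated library a, activated library b, miR-15a library a or miR-15a library b, miR-15a against activated cells gave 1699 and 1554, 1526 and 1129, 1730 and 1865, or 1642 and 1666. Without activated library a, activated library b or control library b, the control microRNA against activated cells gave 475 and 207, 365 and 138, or 428 and 247.

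With the replicate letters as a replicate block 8, 3, 3 and 2 members were called in the order above, and Atf4 was the call lost. The labels do not say whether libraries with the same letter belong together. Deviations of same-lettered libraries correlated at -0.067 to 0.087 over the genes tested. No reference value was set for this, so it does not decide whether they were paired.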

Other observations

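Other genes whose promoters hold an ERSE were looked up as a description, chosen by the motif alone. Beside the 4 members, 15 genes with an ERSE were tested, of which 7 were higher and 4 lower on activation, where 45.4% of all genes tested were higher and 34.1% lower, so these counts are near the background. Their median log2 fold change was 0.54 against 0.21 for all genes. Some genes called higher had low scores. 4930402F11Rik was at 6 and 6 in quiescent and 11 and 12 in activated libraries, and Xlr3a at 8 and 8 against 20 and 18. Xlr3c was at 10 and 8 against 20 and 20, and Zfp57 at 18 and 29 against 51 and 44. Several of the 15 were ER genes. Canx was at 9821 in both quiescent and 20500 in both activated libraries. Creld2, a secreted ER stress protein, was at 133 and 139 against 352 and 317, and Dnajc3 at 1182 and 1461 against 3317 and 3203. Syvn1 went the other way, from 316 and 307 to 158 and 176. The other genes called lower were Hnrnpa3 (log2 fold change -1.51), Spats2l (-1.47) and Pan2 (-0.56). Alg12, Acacb, Adcy3 and Xlr3b did not pass. With miR-15a against the control microRNA 1 of the 15 was higher and 4 were lower, where 14.4% and 15.4% of all genes were, with a median of -0.34 against -0.07 for all genes. Beside Herpud1, 7 genes with an ERSE-II were tested. On activation 3 of them were higher and 3 lower, with a median of 0.01, and with miR-15a against the control microRNA 2 were higher and 1 lower.

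Among the 5 genes whose patterns were most like that of Hspa5 over the 8 libraries, by the root mean square difference of centred log2 scores, were C030034I22Rik (0.136), Ints7 (0.179), Jarid2 (0.184) and Gmip (0.189), out of 4183 genes with a similar spread. None of these is a member of the lists described. Those most like Ddit3 were Rpl14 (0.078), Nme2 (0.095), Tpi1 (0.098), Gss (0.104) and Mbnl1 (0.107), out of 3010.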
